A study of Mus musculus with 20 samples.

Results

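The 36 genes described here form the interferon response and its class I arm: sensors of viral RNA, interferon transcription factors, antiviral effectors, regulators, interferon-induced GTPases, and genes that make and load class I histocompatibility molecules. They were taken from a list of gene names that was chosen with earlier results of these data known. Counts of members set beside the share of all genes therefore describe the list and are not independent support. The genes were followed among 42374 genes in endothelial cells of mouse skeletal muscle. Of the 36, 35 passed the filter on low counts and stood among the 13971 genes tested. The remaining gene, Mx1, did not exceed 0.892 CPM (counts scaled to the TMM-normalised size of each library) in any library.

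CD31+ CD45- endothelial cells had been sorted from 2 muscles of C57BL/6N mice: the soleus, which is oxidative, and the extensor digitorum longus (EDL), whose fibres are glycolytic. The groups were soleus Atf4 ECKO, soleus wild type, EDL Atf4 ECKO and EDL wild type, with 5 libraries each. Atf4 ECKO mice lack Atf4, which drives stress-response and amino acid genes, in endothelial cells. The sources used here do not name the promoter that drives Cre. Mice of all 4 groups were given 1 mg of tamoxifen a day for 5 days at an age of 8 to 10 weeks and then at least 7 days without it, and the wild type mice were Cre-negative littermates. How many animals stand behind a library and what the replicate numbers mean was not stated, so p-values measure only the spread between libraries, which may be technical.

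Type I interferons bind receptors at the cell surface, where the kinases Jak1 and Tyk2 start the signal. Complexes that contain Stat2 and Irf9 bind the interferon-stimulated response element (ISRE), while the interferon-gamma branch acts through the gamma-activated site (GAS). The genes under these elements block viral replication, tag proteins with Isg15, and raise the supply of peptides to class I molecules, which endothelial cells show to T cells that pass along the vessel wall.

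Promoter stretches of 6 members are shown first, because the ISRE is the element that defines the pathway. These 6 were taken from the 13 members whose windows hold its core, so they do not stand for all members. RefSeq windows on GRCm38.p6, from 250 bases before to 50 bases after the RefSeq start of each gene, were matched for 30 of the 36 members. For 25 of these 30, the first 20 bases after that start lay in a GENCODE transcript of the gene. RefSeq starts can differ from GENCODE gene coordinates, and the Gbp2 stretch reaches into the GENCODE gene, which begins at 142620602. The ISRE core was searched as GAAANNGAAA on both strands, counting overlapping matches, and the GAS as TTCNNNGAA, which reads the same on both strands. The ISRE core lay in the windows of 13 of 30 members (43.3%), against 3.99% of all 27025 genes with a window. The GAS lay in 7 of 30 (23.3%), against 9.55% of all genes. An amino acid response core bound by ATF4, TGATGCAA, lay on either strand in 0 of 30 members and in 1.03% of all genes. Mx1, Mx2, Ifi27l2a, Usp18, Parp9 and Parp14 had no entry. Capitals mark the ISRE core, read 5′ to 3′ on the strand of the gene, with 20 bases on either side.
Ifit1 (chr19:34640765-34640833, plus strand): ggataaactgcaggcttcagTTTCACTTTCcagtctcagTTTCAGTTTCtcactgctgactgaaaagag
Ifit3 (chr19:34583353-34583436, plus strand): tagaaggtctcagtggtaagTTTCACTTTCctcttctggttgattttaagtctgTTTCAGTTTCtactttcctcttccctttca
Isg15 (chr4:156200855-156200916, minus strand): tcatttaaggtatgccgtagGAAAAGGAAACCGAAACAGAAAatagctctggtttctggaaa
Gbp2 (chr3:142620584-142620633, plus strand): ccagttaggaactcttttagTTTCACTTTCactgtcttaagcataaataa
Igtp (chr11:58199502-58199551, plus strand): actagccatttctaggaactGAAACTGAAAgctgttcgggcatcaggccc
B2m (chr2:122147528-122147577, plus strand): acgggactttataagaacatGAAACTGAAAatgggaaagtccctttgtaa

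Ifit1 and Ifit3 each hold a pair of cores on the opposite strand, which begin 104 and 85 bases before the start of Ifit1 and 156 and 122 bases before that of Ifit3. In Isg15, 3 cores overlap in a run that begins 78 bases before the start. Gbp2, Igtp and B2m hold 1 core each. By role, the core was found in 2 of 2 sensors, 3 of 4 GTPases, 6 of 12 effectors with a window, 1 of 4 transcription factors, 1 of 6 class I genes and 0 of 2 regulators with a window. Between soleus Atf4 ECKO and soleus wild type, the median log2 fold change was 0.28 over the 13 members with the core and 0.37 over the 17 without it, and the medians of the interaction of genotype and muscle were 0.364 and 0.495.

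Library totals ran between 8013223 and 21720127 estimated counts. Atf4 stood at 8.29 CPM ± 0.352 (SD, n = 5) in soleus Atf4 ECKO and 554 CPM ± 21.02 in soleus wild type, and at 7.38 CPM ± 0.996 in EDL Atf4 ECKO and 262 CPM ± 13.5 in EDL wild type. The sum of 10 endothelial markers was 8736 to 9045 CPM in soleus Atf4 ECKO and 8253 to 8602 CPM in soleus wild type. In EDL it was 7722 to 7822 CPM in Atf4 ECKO and 9187 to 9556 CPM in wild type. The genotypes thus did not overlap in either muscle, with Atf4 ECKO higher in soleus and lower in EDL. Summed over 19 immune markers, libraries held 47.4 to 105 CPM in soleus Atf4 ECKO and 391 to 499 CPM in soleus wild type, and 20.5 to 22.2 CPM in EDL Atf4 ECKO and 35.8 to 40.8 CPM in EDL wild type. Ptprc, which encodes CD45, averaged 0.252 CPM in soleus Atf4 ECKO and 2.53 CPM in soleus wild type. Markers of lymphocytes and of plasmacytoid dendritic cells, a main source of interferon, summed to at most 1.60 CPM in any library. Sex-linked RNA divided the libraries as well. The 10 wild type libraries carried 92.1 to 118 CPM of Y-linked RNA and at most 0.274 CPM of Xist, which female cells express. The 5 EDL Atf4 ECKO libraries held 59.3 to 66.4 CPM of Xist and at most 1.55 CPM of Y-linked RNA, so sex-linked RNA and genotype cannot be told apart in EDL. In soleus Atf4 ECKO, libraries 4 and 5 likewise held Xist (81.6 and 76.2 CPM) with at most 1.097 CPM of Y-linked RNA, while libraries 1, 2 and 3 carried both Xist (18.0 to 43.8 CPM) and Y-linked RNA (32.2 to 65.6 CPM). Fits without libraries 1, 2 and 3 keep only libraries 4 and 5 of that group. In those fits sex-linked RNA and genotype cannot be told apart in soleus either.

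Per transcript length, the light and heavy chains of class I were the most abundant members. Averaged over the groups, B2m, the light chain of class I molecules, stood at 7356 TPM (the deposited abundance, scaled for transcript length and library size). The class I heavy chains H2-D1 and H2-K1 followed with 1906 and 1851 TPM. Bst2, which tethers budding viruses to the cell, came next at 762 TPM, and Psmb8, a catalytic subunit of the immunoproteasome, at 309 TPM. The transcription factors Irf1 and Irf7 stood at 115 and 80.3 TPM, and the sensors Ddx58 and Ifih1 at 30.9 and 16.4 TPM. Mx2, an antiviral GTPase annotated in the mouse as a polymorphic pseudogene, was at 3.86 TPM.

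Summed over its 6 genes, the class I group held 10140 TPM ± 289 in soleus Atf4 ECKO and 10060 TPM ± 366 in soleus wild type, and 10970 TPM ± 234 in EDL Atf4 ECKO and 15060 TPM ± 545 in EDL wild type (SD, n = 5 each). EDL wild type stood above the other 3 groups. The 5 regulators summed to 135 TPM ± 9.39 in soleus Atf4 ECKO and 81.7 TPM ± 4.59 in soleus wild type, and to 122 TPM ± 4.32 in EDL Atf4 ECKO and 108 TPM ± 1.56 in EDL wild type. Here the lowest group was soleus wild type. The TPM scale is not adjusted for composition: over all tested genes the median log2 ratio of group means in TPM was 0.23 between soleus Atf4 ECKO and soleus wild type, 0.11 between EDL Atf4 ECKO and EDL wild type, -0.07 between soleus and EDL in Atf4 ECKO and -0.18 between soleus and EDL in wild type. The fold changes below use TMM-normalised counts, in which these medians lie within 0.02 of 0. Of the members called below, H2-D1 in soleus was the 1 whose direction differed between the scales, with 1702 TPM in Atf4 ECKO and 1637 TPM in wild type.

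Ranked by mean CPM, 21 of the 36 members were highest in soleus Atf4 ECKO, 12 in EDL wild type and 3 in soleus wild type. The lowest group was soleus wild type for 24 members. These ranks include Mx1, which was not tested. The ranking was not made over all tested genes, so these counts have no share to be read against.

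**Figure D1:**
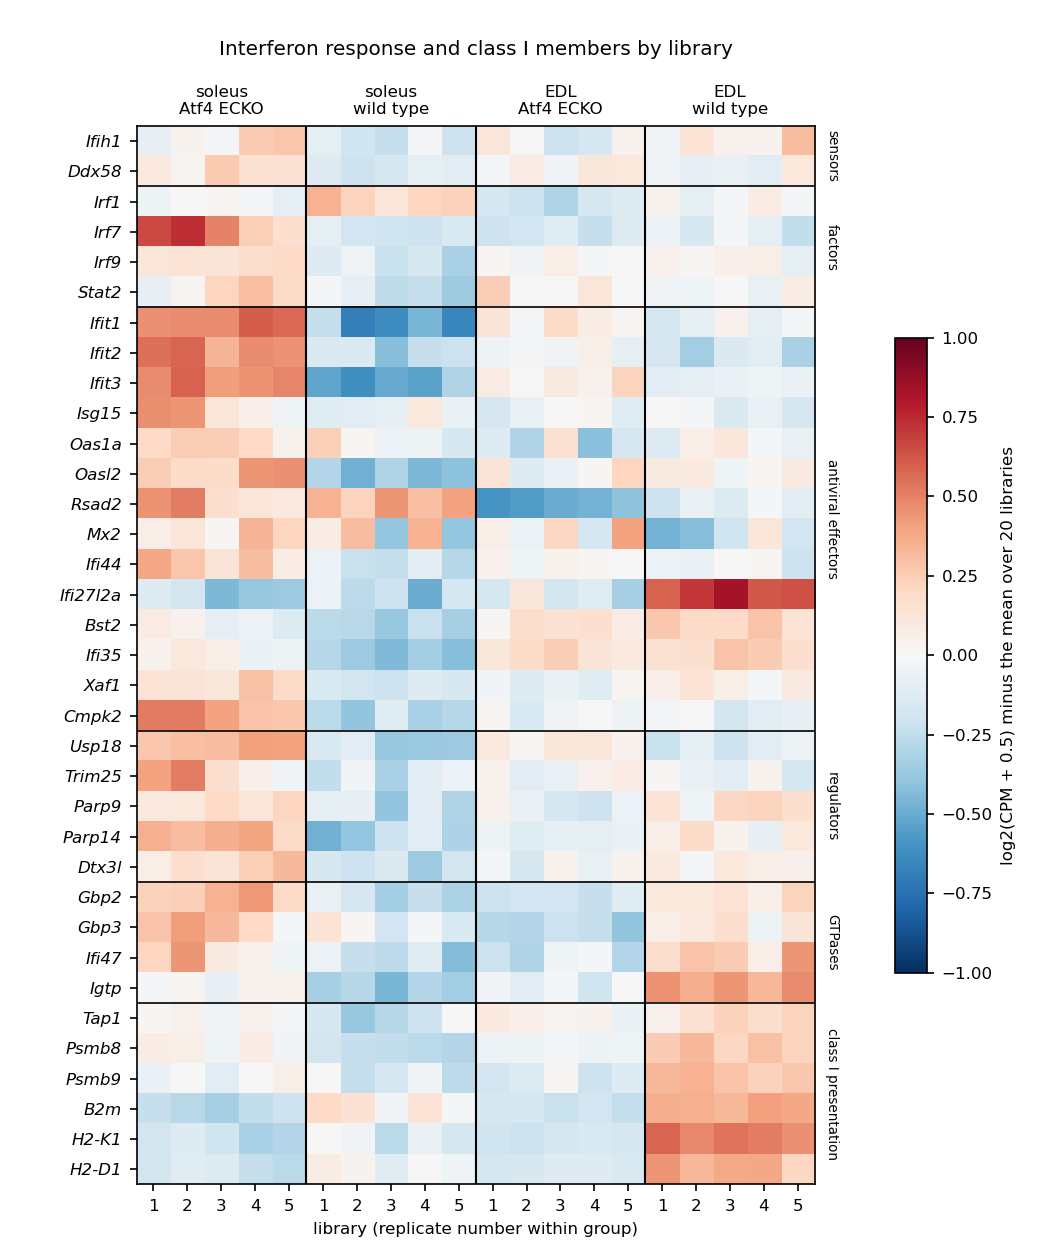
Heat map of the 35 tested members (rows, by role) in the 20 libraries (columns, by group and replicate number). Colour gives log2(CPM + 0.5) minus the gene's mean over all libraries; Ifit1, Ifit2 and Ifit3 are high in all 5 soleus Atf4 ECKO libraries, whereas H2-K1, B2m and Ifi27l2a are high in all 5 EDL wild type libraries.

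In soleus, most members were higher in Atf4 ECKO. Of 35 tested members, 26 rose and 3 fell in soleus Atf4 ECKO against soleus wild type, at an adjusted p below 0.05 in edgeR's quasi-likelihood test. Among all tested genes 32% were called, 14.6% higher and 17.4% lower. The members' median log2 fold change was 0.33, against 0.02 over all tested genes. In 23 members the 5 libraries of each group did not overlap, as in 20.2% of all tested genes. By role, all 5 regulators, all 4 GTPases and both sensors rose, as did 10 of 14 tested effectors and 3 of 4 transcription factors. The 6 class I genes split, with 2 higher, 2 lower and 2 not called.

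The Ifit genes, whose products bind foreign RNA and hinder its translation, had the largest rises among the members. Ifit1 (chromosome 19, 34640871 to 34650009, GRCm38) stood at 89.99, 90.8, 90.7, 99.9 and 97.2 CPM in soleus Atf4 ECKO, against 55.2, 40.5, 42.3, 47.4 and 41.5 CPM in soleus wild type. Every Atf4 ECKO library lay above every wild type library. The log2 fold change was 1.05 ± 0.07 (SE; edgeR adjusted p = 2.2e-12). Ifit3 stood at 104, 113, 99.9, 102 and 105 CPM in soleus Atf4 ECKO, against 51.7, 48.7, 52.7, 51.5 and 60.7 CPM in soleus wild type. The groups lay apart in the same way, and Ifit3 rose by 0.98 ± 0.05 (edgeR adjusted p = 7.6e-14). Its near-identical copy Ifit3b can share its reads, so both values are uncertain. Ifit3b averaged 32.04 CPM ± 1.57 in soleus Atf4 ECKO and 16.2 CPM ± 1.92 in soleus wild type and rose by 0.98 ± 0.09 (edgeR adjusted p = 9.8e-10). Ifit2 averaged 103 CPM ± 6.72 in soleus Atf4 ECKO and 62.7 CPM ± 4.93 in soleus wild type and rose by 0.71 ± 0.06 (edgeR adjusted p = 4.6e-10). Ifit2, Ifit3 and Ifit1 lie in this order on the plus strand of chromosome 19, with 7111 bases between Ifit2 and Ifit3 and 52139 bases between Ifit3 and Ifit1.

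**Figure D2:**
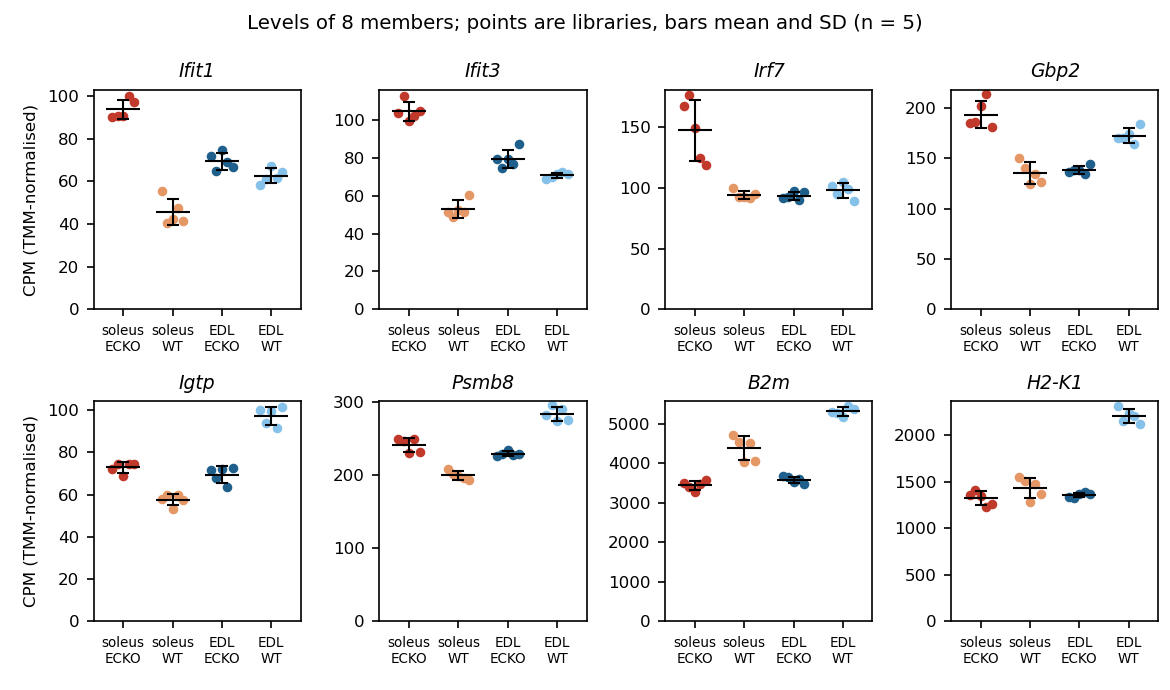
Levels of 8 members in CPM on TMM-normalised library sizes, on axes that start at 0. Each point is a library and bars give the mean and SD (n = 5); ECKO stands for Atf4 ECKO and WT for wild type. Ifit1 and Ifit3 are highest in soleus Atf4 ECKO and lowest in soleus wild type, whereas B2m and H2-K1 are highest in EDL wild type.

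The other effectors that rose had smaller fold changes. Oasl2, of the oligoadenylate synthetase family, averaged 86.2 CPM ± 8.28 in soleus Atf4 ECKO and 53.1 CPM ± 3.18 in soleus wild type, a log2 fold change of 0.70 ± 0.07 (edgeR adjusted p = 4e-09). Ifi44, Ifi35 and the pro-apoptotic Xaf1 rose by 0.42 ± 0.06, 0.39 ± 0.05 and 0.34 ± 0.05, and Bst2 by 0.27 ± 0.05 (edgeR adjusted p = 5.5e-06, 3e-07, 1.3e-06 and 0.00011). Isg15, a ubiquitin-like modifier, stood at 62.3, 61.2, 49.1, 46.7 and 43.8 CPM in soleus Atf4 ECKO, against 41.4, 41.8, 41.99, 48.4 and 42.9 CPM in soleus wild type. These groups overlapped, and its 3 highest values came from the libraries that carried both kinds of sex-linked RNA. Over all libraries Isg15 rose by 0.27 ± 0.08 (edgeR adjusted p = 0.0109), and without those 3 libraries its log2 fold change was 0.06 (edgeR adjusted p = 0.65). Oas1a and Mx2 were not called, at 0.19 ± 0.09 and 0.15 ± 0.16 (edgeR adjusted p = 0.111 and 0.541).

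Rsad2 and Cmpk2 are neighbours on chromosome 12, read away from each other with 12751 bases between them, and had different values. Cmpk2, a mitochondrial nucleotide kinase, stood at 78.4, 78.2, 72.3, 66.4 and 65.7 CPM in soleus Atf4 ECKO, against 44.97, 41.4, 49.96, 43.3 and 44.6 CPM in soleus wild type. It rose by 0.68 ± 0.06 without overlap (edgeR adjusted p = 1.3e-09). Rsad2, which encodes viperin, an enzyme that makes chain-terminating nucleotides, stood at 155, 162, 128, 124 and 121 CPM in soleus Atf4 ECKO, against 145, 133, 154, 139.9 and 150.1 CPM in soleus wild type. Its groups overlapped, with a log2 fold change of -0.07 ± 0.07 (edgeR adjusted p = 0.475). Without the 3 libraries that carry both kinds of sex-linked RNA Rsad2 was called lower at -0.24 (edgeR adjusted p = 0.0042).

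Among the transcription factors Irf7, which amplifies the type I interferon response, had the largest difference. It stood at 167, 177, 149, 125 and 119 CPM in soleus Atf4 ECKO, against 99.6, 92.5, 92.2, 91.4 and 95 CPM in soleus wild type. All 5 Atf4 ECKO libraries were higher, with a wide spread among them, and the log2 fold change was 0.64 ± 0.08 (edgeR adjusted p = 2.8e-07). Irf9 and Stat2, which act together at the ISRE, rose by 0.33 ± 0.05 and 0.33 ± 0.07 (edgeR adjusted p = 5.3e-06 and 0.00077). Irf9 overlaps Rnf31 on the same strand and Irf7 overlaps Phrf1 on the other strand, which makes both uncertain. Irf1, a factor of the interferon-gamma branch, went the other way. It averaged 179 CPM ± 5.08 in soleus Atf4 ECKO and 214 CPM ± 11.7 in soleus wild type and fell by 0.26 ± 0.05 on the log2 scale (edgeR adjusted p = 5.4e-05). In the sensors, Ddx58 (RIG-I) rose by 0.28 ± 0.05 and Ifih1 (MDA5) by 0.25 ± 0.08 (edgeR adjusted p = 0.00014 and 0.0174), and the call of Ifih1 was lost in 2 of 20 fits that left out 1 library.

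The regulators shape the response once it runs. Usp18, which removes Isg15 from proteins and dampens receptor signalling, stood at 57.3, 58.7, 58.8, 63.2 and 62.8 CPM in soleus Atf4 ECKO, against 42.6, 43.8, 36.5, 36.6 and 36.7 CPM in soleus wild type. The groups did not overlap, and the log2 fold change was 0.62 ± 0.06 (edgeR adjusted p = 3.2e-09). Parp14, an ADP-ribosyltransferase, rose by 0.62 ± 0.06 (edgeR adjusted p = 1.2e-08). The complex partners Parp9 and Dtx3l rose by 0.35 ± 0.07 and 0.40 ± 0.06 (edgeR adjusted p = 0.00016 and 2.7e-06), and are uncertain because they overlap by 682 bases on opposite strands of chromosome 16. Trim25, a ubiquitin ligase that acts on Ddx58, rose by 0.38 ± 0.08 (edgeR adjusted p = 0.00074), but was at 0.16 and not called without the libraries that carry both kinds of sex-linked RNA. Usp18 and Parp14 overlap predicted gene models and are uncertain too.

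The GTPases act at the membranes around intracellular parasites. Gbp2 stood at 185, 186, 202, 214 and 181 CPM in soleus Atf4 ECKO, against 150.1, 141, 125, 135 and 127 CPM in soleus wild type. It rose by 0.52 ± 0.05 without overlap (edgeR adjusted p = 1.7e-08). Its close copy Gbp2b can share its reads, so Gbp2 is uncertain. Igtp, which overlaps Irgm2 and is uncertain, stood at 72.2, 74.3, 68.8, 74.7 and 74.6 CPM in soleus Atf4 ECKO, against 58, 59.9, 53.03, 59.6 and 57.4 CPM in soleus wild type. All Atf4 ECKO libraries were again higher, and Igtp rose by 0.34 ± 0.05 (edgeR adjusted p = 4.5e-06). Gbp3 and Ifi47 rose by 0.28 ± 0.07 and 0.37 ± 0.09 (edgeR adjusted p = 0.00215 and 0.00168), but were at 0.13 and 0.21 without the libraries that carry both kinds of sex-linked RNA, no longer called. Ifi47 overlaps Olfr56 on the same strand and is uncertain too.

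Within the class I genes of soleus, 2 for peptide supply rose and 2 for display fell. Psmb8 averaged 242 CPM ± 9.56 in soleus Atf4 ECKO and 199.9 CPM ± 5.90 in soleus wild type and rose by 0.27 ± 0.04 (edgeR adjusted p = 3.5e-06). Tap1, a chain of the peptide transporter into the endoplasmic reticulum, rose by 0.21 ± 0.06 (edgeR adjusted p = 0.00511). Psmb9, an immunoproteasome subunit that overlaps Tap1 by 212 bases on the other strand, was at 0.11 ± 0.06 (edgeR adjusted p = 0.125). B2m (chromosome 2, 122147686 to 122153083, GRCm38) stood at 3497, 3400, 3267, 3467 and 3565 CPM in soleus Atf4 ECKO, against 4725, 4539, 4045, 4524 and 4065 CPM in soleus wild type. Every Atf4 ECKO library was lower, and B2m fell by 0.35 ± 0.04 on the log2 scale (edgeR adjusted p = 3.1e-07). H2-D1 fell by 0.18 ± 0.05 (edgeR adjusted p = 0.00277) and H2-K1 was at -0.12 ± 0.05 (edgeR adjusted p = 0.0647), or at -0.21 and called lower without the libraries that carry both kinds of sex-linked RNA (edgeR adjusted p = 0.0066). Both can share reads with the H2-Q genes, and B2m overlaps Patl2 on the other strand, so all 3 are uncertain.

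The soleus groups also differ in RNA of other cell types and in sex-linked RNA. All 18 tested immune markers were lower in soleus Atf4 ECKO, while 7 of 10 muscle fibre markers were higher, with sums of 201 CPM in soleus Atf4 ECKO and 125 CPM in soleus wild type. Of 7 pericyte and smooth muscle markers 4 were higher, with sums of 858 CPM in soleus Atf4 ECKO and 633 CPM in soleus wild type, and of 6 fibroblast markers 0 were called (edgeR), with sums of 233 CPM in soleus Atf4 ECKO and 211 CPM in soleus wild type. Their part in the result was not tested, and in such bulk samples fewer cells of a type and less RNA per cell cannot be told apart. Without the 3 Atf4 ECKO libraries that carry both kinds of sex-linked RNA, 22 members rose and 5 fell. That fit keeps only Atf4 ECKO libraries 4 and 5, so it cannot part sex-linked RNA from genotype. With Y-linked RNA as a covariate 18 rose and 1 fell, and with the mean level of immune markers as a covariate 7 rose and 1 fell. Neither Y-linked nor immune RNA overlapped between Atf4 ECKO and wild type in either muscle, so all values with these covariates carry over a slope between groups that do not overlap. Ifih1 and Stat2 were below 0 under either covariate, at -0.12 and -0.01 with Y-linked RNA and at -0.83 and -0.63 with immune RNA. Rsad2 was called higher under either, at 0.41 and 1.09.

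In EDL, more members were lower than higher in Atf4 ECKO. Of 35 tested members, 3 rose and 14 fell in EDL Atf4 ECKO against EDL wild type, while 29% of all tested genes were called, 13.9% higher and 15.1% lower. The median log2 fold change was -0.13, against 0.00 over all tested genes. In 15 members the groups did not overlap, as in 22.4% of all tested genes. All 4 GTPases fell, as did 5 of 6 class I genes. The 3 that rose were Ifit2, Ifit3 and Usp18, by 0.19 ± 0.06, 0.17 ± 0.05 and 0.22 ± 0.06 (edgeR adjusted p = 0.0202, 0.0206 and 0.00654), and 0 rose when the filter on low counts was left out and 1 rose without EDL Atf4 ECKO library 3. With Y-linked RNA as a covariate, which in EDL stands apart between the genotypes, 7 fell, and Rsad2 and Ifi47 were at 0.16 and 0.06. With immune RNA as a covariate, which stands apart too, 5 rose and 12 fell. Of the 10 endothelial markers 7 were lower and 0 higher in EDL Atf4 ECKO, and 6 of 10 muscle fibre markers and 3 of 6 fibroblast markers were higher, with sums of 108 and 119 CPM in EDL Atf4 ECKO and 38.2 and 53.2 CPM in EDL wild type. Of 7 pericyte and smooth muscle markers 2 were higher and 1 lower. Acta2 stood at 1024 CPM in EDL Atf4 ECKO and 189 CPM in EDL wild type, while Rgs5 stood at 363 CPM in EDL Atf4 ECKO and 415 CPM in EDL wild type. The part of these in the result was not tested.

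The class I display genes and Ifi27l2a had the largest falls. H2-K1 (chromosome 17, 33996017 to 34000347, GRCm38) stood at 1339, 1328, 1365, 1385 and 1370 CPM in EDL Atf4 ECKO, against 2308, 2148, 2241, 2200 and 2117 CPM in EDL wild type. The groups lay far apart, and H2-K1 fell by 0.70 ± 0.05 on the log2 scale (edgeR adjusted p = 2.1e-11). B2m stood at 3668, 3647, 3524, 3607 and 3486 CPM in EDL Atf4 ECKO, against 5298, 5275, 5175, 5459 and 5375 CPM in EDL wild type. It fell by 0.57 ± 0.04 without overlap (edgeR adjusted p = 6.9e-11). H2-D1 averaged 2506 CPM ± 32.9 in EDL Atf4 ECKO and 3549 CPM ± 209 in EDL wild type and fell by 0.50 ± 0.05 (edgeR adjusted p = 2.1e-09). On the side of peptide supply Psmb8 and Psmb9 fell by 0.31 ± 0.04 and 0.42 ± 0.06 (edgeR adjusted p = 7.9e-07 and 1.4e-06), and Tap1 was at -0.14 ± 0.06 (edgeR adjusted p = 0.0658).

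Among the GTPases, Igtp stood at 71.4, 67.8, 72.1, 63.5 and 72.6 CPM in EDL Atf4 ECKO, against 99.99, 94.1, 99.4, 91.8 and 102 CPM in EDL wild type. The groups did not overlap, and Igtp fell by 0.49 ± 0.05 on the log2 scale (edgeR adjusted p = 1.5e-08). Gbp2 stood at 136, 138, 138, 134 and 145 CPM in EDL Atf4 ECKO, against 170.2, 170.0, 174, 164 and 184 CPM in EDL wild type. It fell by 0.32 ± 0.05 without overlap (edgeR adjusted p = 4e-05), and Gbp3 and Ifi47 fell by 0.37 ± 0.07 and 0.42 ± 0.09 (edgeR adjusted p = 0.0002 and 0.00062).

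Of the 14 tested effectors, 2 rose, 3 fell and 9 were not called in EDL, a share of 35.7% called that lies near the 29% of all tested genes. Ifi27l2a, an interferon-induced membrane protein, stood at 25.9, 31.9, 25.9, 26.9 and 23.3 CPM in EDL Atf4 ECKO, against 44.5, 48.3, 52.7, 45.6 and 46.2 CPM in EDL wild type. The groups did not overlap, and it fell by 0.83 ± 0.09 on the log2 scale (edgeR adjusted p = 2.4e-08). Rsad2 averaged 80.1 CPM ± 4.13 in EDL Atf4 ECKO and 105 CPM ± 5.29 in EDL wild type and fell by 0.40 ± 0.07 (edgeR adjusted p = 8.6e-05), while its neighbour Cmpk2 was at 0.03 ± 0.06 (edgeR adjusted p = 0.73). Ifit1 stood at 71.6, 64.9, 74.4, 68.9 and 66.6 CPM in EDL Atf4 ECKO, against 58.1, 61.04, 67.3, 61.5 and 64.6 CPM in EDL wild type. The groups overlapped, at 0.15 ± 0.07 (edgeR adjusted p = 0.0957). Irf7 averaged 93.6 CPM ± 3.15 in EDL Atf4 ECKO and 98 CPM ± 6.18 in EDL wild type (-0.07 ± 0.08, edgeR adjusted p = 0.578), but was called higher with Y-linked RNA as a covariate (0.62) and with immune RNA (0.29). Irf1 fell by 0.20 ± 0.05 (edgeR adjusted p = 0.00163).

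**Figure D3:**
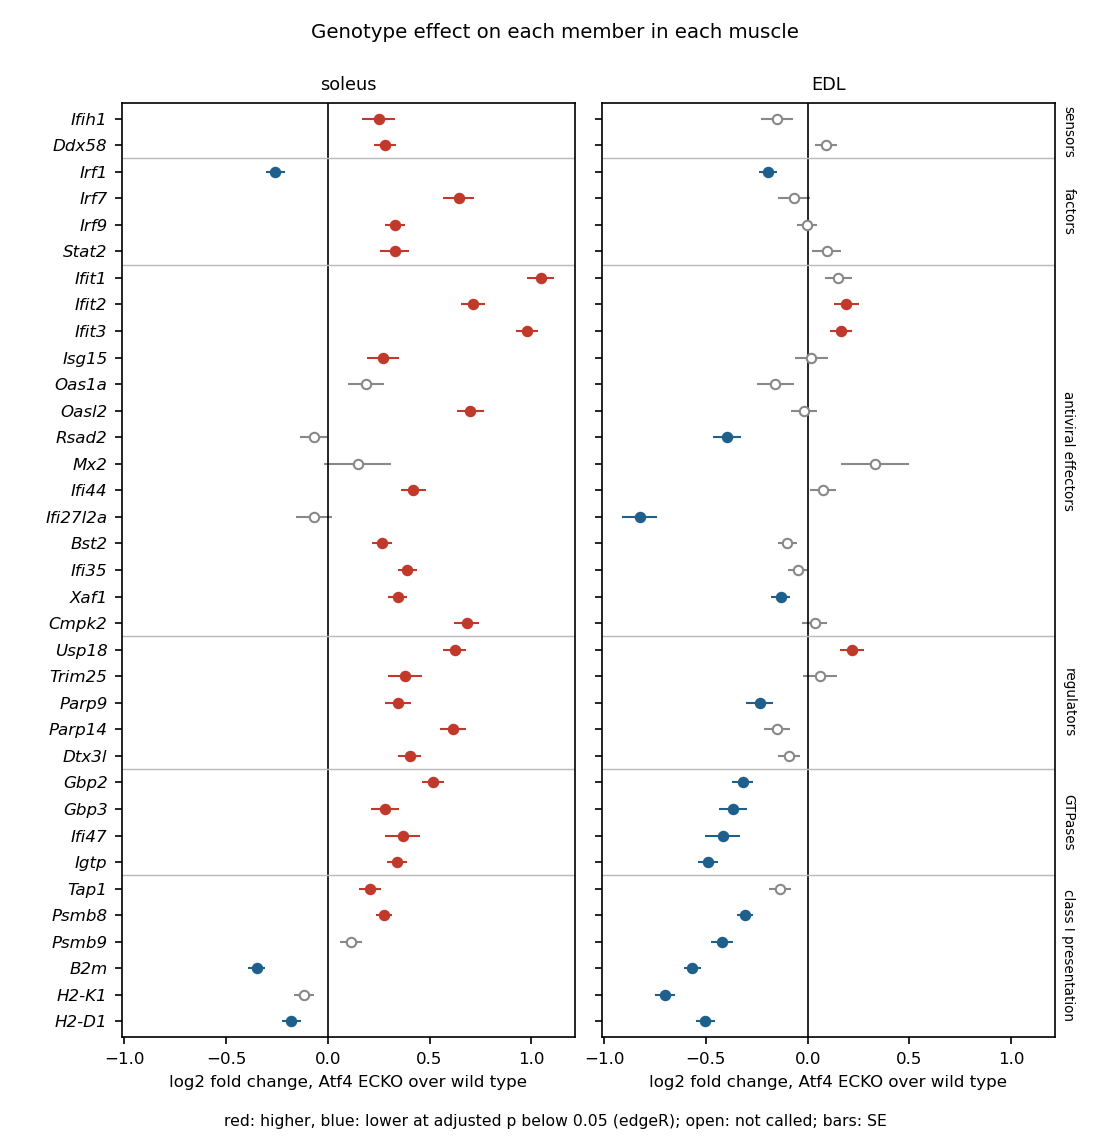
Log2 fold change of Atf4 ECKO over wild type for the 35 tested members (rows, by role) in soleus and in EDL, with SE bars; red and blue mark higher and lower calls at an edgeR adjusted p below 0.05 and open symbols no call. In soleus 26 members are red and 3 blue, in EDL 3 are red and 14 blue, and the 4 GTPases are red in soleus and blue in EDL.

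The genotype comparisons of the 2 muscles share no library. Of the 26 members that rose in soleus, 3 rose, 7 fell and 16 were not called in EDL, and the 3 that fell in soleus, Irf1, B2m and H2-D1, also fell in EDL. The 7 members called in opposite directions were Xaf1, Parp9, Psmb8 and the 4 GTPases. Of these, Xaf1 (-0.13 ± 0.05 in EDL, edgeR adjusted p = 0.0317) lost its EDL call without EDL Atf4 ECKO library 2 or 4 or EDL wild type library 2 or 5, and Gbp3 and Ifi47 lost their soleus calls without the 3 libraries that carry both kinds of sex-linked RNA. The interaction tests whether the genotype effect differs between the muscles, as the log2 fold change in soleus minus that in EDL. It was called positive for 29 of 35 members and negative for 0 by edgeR, against 22.6% of all tested genes called, 10.1% positive and 12.5% negative. At an unadjusted p below 0.05, 0 members were negative in edgeR, and DESeq2 and limma-voom called 0 negative. The median interaction was 0.47 on the log2 scale, against 0.01 over all tested genes. Of 10 endothelial markers 5 were called positive and 0 negative too, with a median of 0.223. Of 18 tested immune markers 0 were positive and 10 negative, and of 10 muscle fibre markers 0 and 3. Pericyte and smooth muscle markers gave 3 positive and 3 negative of 7, and fibroblast markers 0 and 0 of 6. The part of these in the result was not tested.

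Ifit1 had the largest interaction, 0.90 ± 0.10 (edgeR adjusted p = 6.2e-08), followed by Gbp2 with 0.84 ± 0.08 and Igtp with 0.83 ± 0.07 (edgeR adjusted p = 3.4e-09 and 1e-09). All 6 class I genes were called, between 0.22 for B2m and 0.58 for Psmb8 and H2-K1. For B2m and H2-D1 this was a smaller fall in soleus than in EDL, not a rise. The 6 members without a call were Ddx58, Irf1, Stat2, Isg15, Mx2 and Trim25, and of these Irf1 was at -0.06 ± 0.06 (edgeR adjusted p = 0.54). Without the 3 libraries that carry both kinds of sex-linked RNA 28 members were called positive, and with the immune covariate 16 were. The call of Oas1a (0.35 ± 0.13, edgeR adjusted p = 0.0489) was lost in 15 of 20 fits that left out 1 library.

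In Atf4 ECKO mice, most called members were higher in soleus than in EDL. Of 35 tested members, 20 were higher and 2 lower in soleus Atf4 ECKO than in EDL Atf4 ECKO, while 18.4% of all tested genes were called, 8.31% higher and 10.1% lower. The median log2 fold change was 0.23, against 0.00 over all tested genes, and in 16 members the groups did not overlap, as in 13.2% of all tested genes. Rsad2 averaged 138 CPM ± 19.2 in soleus Atf4 ECKO and 80.1 CPM ± 4.13 in EDL Atf4 ECKO, with a log2 fold change of 0.78 ± 0.07 (edgeR adjusted p = 6.6e-09). Irf7, Gbp3, Ifit2 and Gbp2 followed with 0.65 ± 0.08, 0.53 ± 0.07, 0.51 ± 0.06 and 0.49 ± 0.05 (edgeR adjusted p = 8.1e-07, 3.4e-06, 7e-07 and 1.9e-07). The 2 lower members, Bst2 and Ifi35, were at -0.15 ± 0.05 and -0.14 ± 0.05 (edgeR adjusted p = 0.0358 and 0.0369), and neither was called when the compared groups were fitted alone. Without soleus Atf4 ECKO library 4 or 5, or without EDL Atf4 ECKO library 2, 3 or 4, 0 were lower, and without soleus Atf4 ECKO library 3, 1 was. Of the 6 class I genes 0 were called by edgeR, 0 had an unadjusted p below 0.05, and DESeq2 and limma-voom called 0. Their log2 fold changes ran between -0.06 for B2m and 0.11 for Psmb9. Of 18 tested immune markers 12 were higher and 1 lower in soleus Atf4 ECKO. Of 10 endothelial markers 4 were higher and 0 lower, and of 10 muscle fibre markers 8 and 1. Fibroblast markers gave 2 higher and 0 lower of 6, and pericyte and smooth muscle markers 0 and 4 of 7. The part of these in the result was not tested. Without the 3 libraries with both kinds of sex-linked RNA 15 members were higher and 2 lower, and with the immune covariate 11 were higher and 0 lower.

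In wild type mice, most called members were lower in soleus. Of 35 tested members, 2 were higher and 22 lower in soleus wild type than in EDL wild type, while 32.4% of all tested genes were called, 16.4% higher and 15.9% lower. The median log2 fold change was -0.27, against 0.00 over all tested genes, and in 21 members the groups did not overlap, as in 23.1% of all tested genes. All 6 class I genes were lower. H2-K1 averaged 1433 CPM ± 109.6 in soleus wild type and 2203 CPM ± 75.6 in EDL wild type, with a log2 fold change of -0.62 ± 0.05 (edgeR adjusted p = 1.4e-10). Ifi27l2a had the largest difference, with 24.96 CPM ± 2.73 in soleus wild type and 47.5 CPM ± 3.23 in EDL wild type (-0.93 ± 0.08, edgeR adjusted p = 1.5e-09). Igtp was at -0.76 ± 0.05 and Ifit1 at -0.46 ± 0.07 (edgeR adjusted p = 2.6e-12 and 5.7e-06). Irf1 and Rsad2 were the 2 members higher in soleus, by 0.23 ± 0.05 and 0.45 ± 0.07 (edgeR adjusted p = 0.00021 and 7.4e-06). Of 18 tested immune markers 17 were also higher in soleus wild type, as were all 6 fibroblast and 9 of 10 muscle fibre markers. Of 10 endothelial markers 1 was higher and 5 were lower. Of 7 pericyte and smooth muscle markers 0 were higher and 3 lower. The part of all these markers in the result was not tested. With the mean immune level as a covariate, which does not overlap between the muscles, 0 members were higher and 9 lower.

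**Figure D4:**
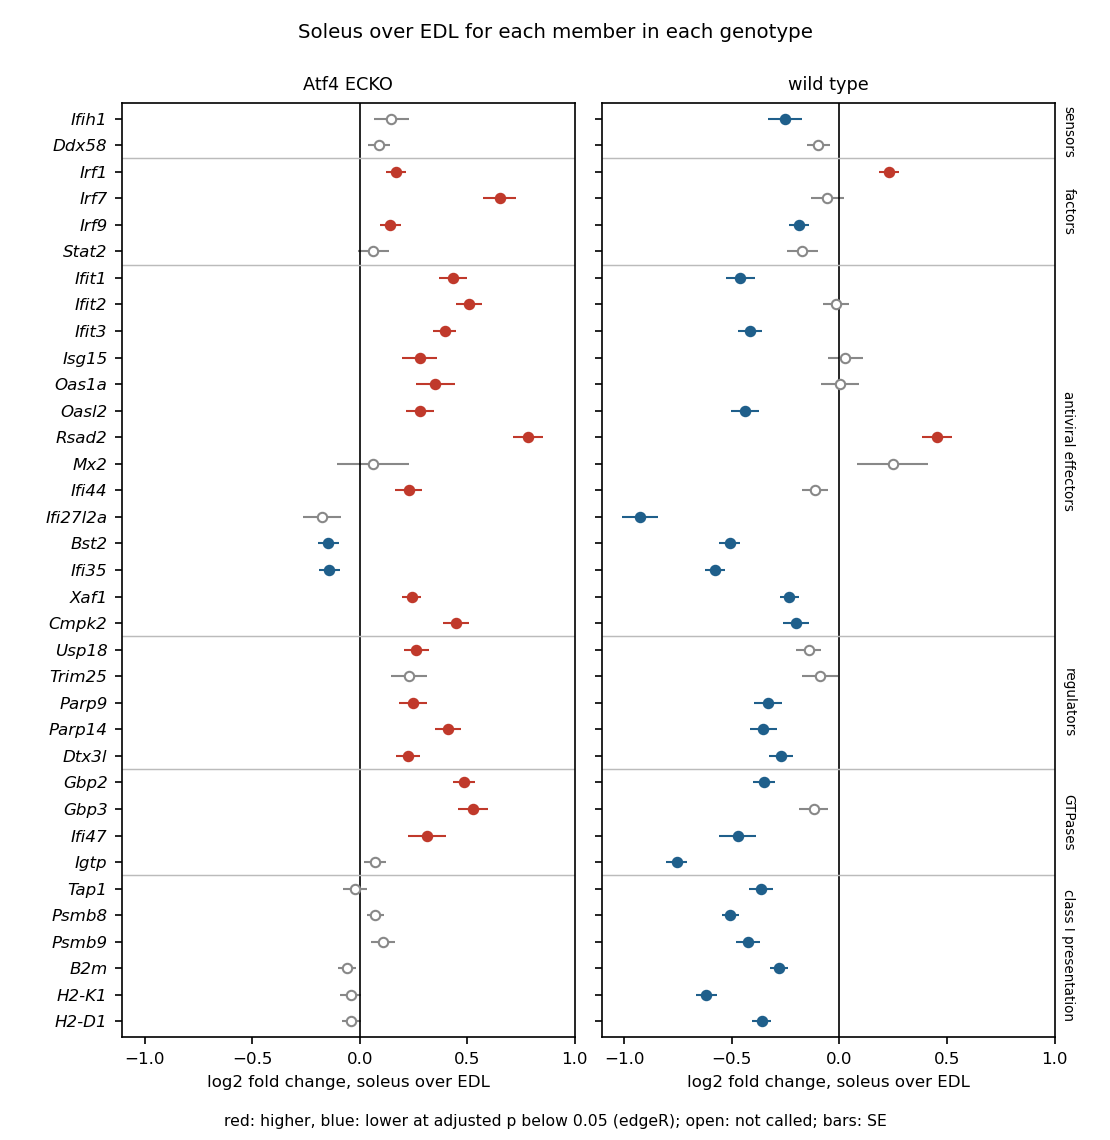
Log2 fold change of soleus over EDL for the 35 tested members (rows, by role) in Atf4 ECKO and in wild type, with SE bars; red and blue mark higher and lower calls at an edgeR adjusted p below 0.05 and open symbols no call. In Atf4 ECKO 20 members are red and 2 blue, in wild type 2 are red and 22 blue, and the 6 class I genes are open in Atf4 ECKO and blue in wild type.

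The soleus Atf4 ECKO libraries divided by sex-linked RNA, and members differed between these sets in both directions. Immune RNA divided them in the same way, so the 2 cannot be told apart here. The mean log2 level of immune markers was 1.21 to 1.47 in libraries 1, 2 and 3. In libraries 4 and 5 it was 0.657 to 0.817. Summed fibroblast markers ran between 60.2 and 421 CPM over the group. In libraries 1, 2 and 3, which carried both kinds of sex-linked RNA, 11 of 35 tested members were higher than in both of libraries 4 and 5, 10 were lower and 14 overlapped. Among all tested genes 38.7% separated in this way, 18.6% higher and 20% lower. Irf7, Isg15 and Cmpk2 were among those higher and Ifit1, Oasl2 and Usp18 among those lower. Set against soleus wild type, libraries 1, 2 and 3 lay above all wild type libraries for 23 members and below for 3, and libraries 4 and 5 lay above for 23 and below for 5. Over all tested genes, libraries 1, 2 and 3 stood apart from wild type for 30.3%, above for 13.7% and below for 16.6%, and libraries 4 and 5 for 38.5%, above for 18.9% and below for 19.6%. Ifit1 was between 89.99 and 90.8 CPM in libraries 1, 2 and 3 and between 97.2 and 99.9 CPM in libraries 4 and 5, with 40.5 to 55.2 CPM in soleus wild type.

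Among 129 tested genes of the other lists, 21 were higher in libraries 1, 2 and 3 than in libraries 4 and 5, 33 were lower and 75 overlapped. Gbp2b and H2-T24, chosen after their values were seen, are shown as examples of either direction. Gbp2b, a close copy of Gbp2, stood at 31.03, 34.2, 15.9, 0 and 0 CPM in soleus Atf4 ECKO, against 4.73, 4.74, 11.95, 4.78 and 11.9 CPM in soleus wild type. In EDL it stood at 0.117, 0, 0, 0 and 0 CPM in Atf4 ECKO, against 4.53, 5.25, 5.24, 3.63 and 2.86 CPM in wild type. It was at or near 0 in each of the 7 libraries with at most 1.55 CPM of Y-linked RNA. The class I-like H2-T24 stood at 20.7, 24.1, 40.9, 65.1 and 57.7 CPM in soleus Atf4 ECKO, against 26.96 to 30.6 CPM in soleus wild type, and at 39.9 to 44.9 CPM in EDL Atf4 ECKO, against 21.9 to 25.4 CPM in EDL wild type. In soleus its highest values were those of Atf4 ECKO libraries 4 and 5. The parts of sex-linked, immune and fibroblast RNA in these values were not tested, nor was what else differs between these libraries.

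**Figure D5:**
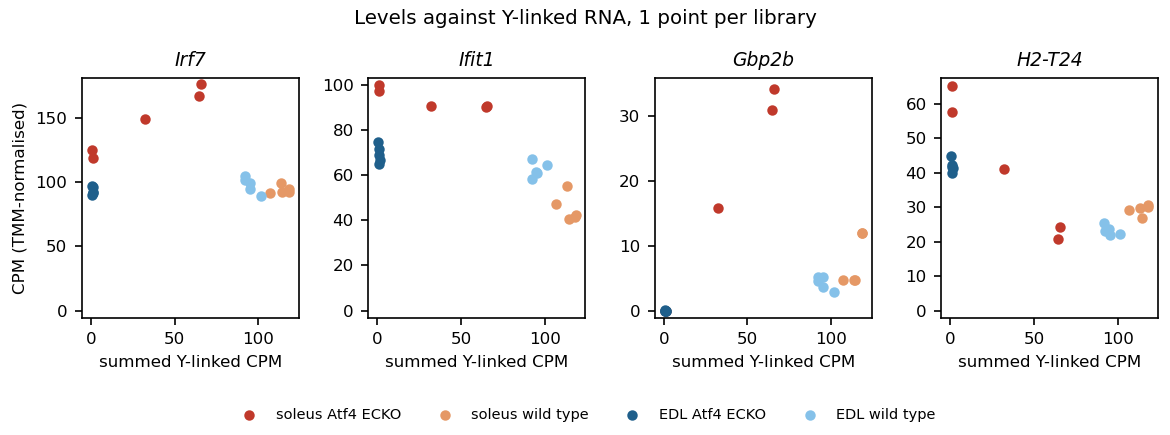
Levels of Irf7, Ifit1, Gbp2b and H2-T24 in CPM on TMM-normalised library sizes against the summed CPM of Y-linked genes, with each point a library and colour the group. The 5 soleus Atf4 ECKO libraries spread between 0.933 and 65.6 CPM of Y-linked RNA, and the 3 with 32.2 CPM or more have higher Irf7 and Gbp2b and lower H2-T24 than the other 2, while Ifit1 lies between 89.99 and 99.9 CPM in all 5.

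Upstream of the members, interferon genes had almost no reads. Of 8 interferon genes listed, 7 had 0 counts in all 20 libraries, and Ifnk reached at most 0.117 CPM. The counts below can be read against the 32% of all tested genes called in soleus and the 29% called in EDL. The receptors and their kinases were present, and of 9 tested, 6 rose and 0 fell in soleus Atf4 ECKO against soleus wild type, and 0 rose and 2 fell in EDL Atf4 ECKO against EDL wild type. Ifnar2, a chain of the type I receptor, averaged 149 CPM ± 7.08 in soleus Atf4 ECKO and 133 CPM ± 2.78 in soleus wild type, and 139 CPM ± 9.16 in EDL Atf4 ECKO and 171 CPM ± 2.97 in EDL wild type. It rose by 0.16 ± 0.04 in soleus and fell by 0.30 ± 0.05 in EDL (edgeR adjusted p = 0.00583 and 7.7e-06), with an interaction of 0.47 ± 0.06 (edgeR adjusted p = 3.1e-06). Ifngr1, a chain of the interferon-gamma receptor, and the kinase Tyk2 rose in soleus by 0.25 ± 0.04 and 0.41 ± 0.08 (edgeR adjusted p = 1.3e-05 and 0.00023). Ifngr2, its other chain, rose by 0.19 ± 0.07 in soleus (edgeR adjusted p = 0.0461), but was at 0.03 without the libraries that carry both kinds of sex-linked RNA. Jak1 rose by 0.11 ± 0.04 in soleus and fell by 0.11 ± 0.04 in EDL (edgeR adjusted p = 0.046 and 0.0429), and these calls were lost in 16 and 11 of 20 fits that left out 1 library. Ifnar1 was called in neither genotype comparison, at 0.12 ± 0.05 in soleus and -0.07 ± 0.05 in EDL (edgeR adjusted p = 0.0684 and 0.34).

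Of 8 further signal factors, 4 rose and 0 fell in soleus, and 3 rose and 1 fell in EDL. Irf3, the factor activated by the RNA sensors, rose in both muscles, by 0.26 ± 0.05 in soleus and 0.41 ± 0.05 in EDL (edgeR adjusted p = 0.00046 and 1.6e-06). Irf2bp2, a corepressor, rose by 0.56 ± 0.07 in soleus (edgeR adjusted p = 8.5e-07). Irf5 averaged 1.96 CPM ± 0.389 in EDL Atf4 ECKO and 0.577 CPM ± 0.104 in EDL wild type and rose by 1.78 ± 0.34 (edgeR adjusted p = 0.00024).

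Among 9 negative regulators outside the members, 0 rose and 4 fell in soleus, and 1 rose and 3 fell in EDL. Socs3, which blocks Jak kinases below cytokine receptors, averaged 85.3 CPM ± 10.9 in soleus Atf4 ECKO and 235 CPM ± 36.7 in soleus wild type, and 44.8 CPM ± 0.847 in EDL Atf4 ECKO and 56.6 CPM ± 3.62 in EDL wild type. It fell by 1.47 ± 0.09 in soleus and by 0.34 ± 0.09 in EDL on the log2 scale (edgeR adjusted p = 2.5e-13 and 0.0074), and was at 0.06 in EDL with Y-linked RNA as a covariate. Socs1, which acts on Jak1 and Tyk2, averaged 8.56 CPM ± 1.54 in soleus Atf4 ECKO and 17.3 CPM ± 2.45 in soleus wild type and fell by 1.03 ± 0.13 (edgeR adjusted p = 6.9e-07). Tnfaip3, a ubiquitin-editing enzyme, rose by 0.65 ± 0.09 and the ubiquitin ligase Rnf125 fell by 0.21 ± 0.05 in EDL (edgeR adjusted p = 3.3e-06 and 0.00319), and Rnf125 was at 0.01 with Y-linked RNA as a covariate.

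Of 46 tested effectors outside the members, 25 rose and 4 fell in soleus, and 3 rose and 12 fell in EDL. Pml, the scaffold of nuclear bodies, rose by 0.59 ± 0.05 in soleus and was at 0.09 ± 0.05 in EDL (edgeR adjusted p = 3.9e-10 and 0.188). Ifi27 fell in both, by 0.35 ± 0.05 in soleus and 0.50 ± 0.05 in EDL (edgeR adjusted p = 3.5e-06 and 1.6e-08), and Isg20, an RNA exonuclease, fell by 0.57 ± 0.12 in EDL (edgeR adjusted p = 0.00042). Of 14 tested sensing genes, 5 rose and 2 fell in soleus and 0 rose and 2 fell in EDL, where 14.3% is a smaller share than over all tested genes. Samhd1, which breaks down nucleotides, rose by 0.48 ± 0.05 in soleus and fell by 0.17 ± 0.05 in EDL (edgeR adjusted p = 2.7e-08 and 0.0106). The adaptor Mavs rose by 0.40 ± 0.07 in soleus (edgeR adjusted p = 9.8e-05). Sting1, the adaptor of DNA sensing, rose by 0.19 ± 0.05 in soleus and fell by 0.21 ± 0.05 in EDL (edgeR adjusted p = 0.00185 and 0.00095), with -0.02 in soleus once transcript length was an offset and 0.14, not called, without the libraries that carry both kinds of sex-linked RNA.

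Of 14 tested GTPases outside the members, 5 rose and 0 fell in soleus and 0 rose and 10 fell in EDL. Gbp7 rose by 0.36 ± 0.05 in soleus and fell by 0.19 ± 0.05 in EDL (edgeR adjusted p = 4.5e-07 and 0.00188). Irgm2 rose by 0.42 ± 0.05 in soleus and fell by 0.24 ± 0.05 in EDL (edgeR adjusted p = 9.3e-07 and 0.00114). Iigp1 and Gbp4 fell by 0.49 ± 0.05 and 0.54 ± 0.06 in EDL (edgeR adjusted p = 6e-09 and 2.8e-07) and were at -0.02 ± 0.05 and -0.05 ± 0.06 in soleus (edgeR adjusted p = 0.771 and 0.64).

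Of 29 tested class I genes outside the members, 7 rose and 6 fell in soleus, and 2 rose and 17 fell in EDL. Psmb10, an immunoproteasome subunit, averaged 114 CPM ± 4.89 in soleus Atf4 ECKO and 85.8 CPM ± 3.35 in soleus wild type and rose by 0.41 ± 0.04 (edgeR adjusted p = 1.2e-08). Tap2, the partner of Tap1, rose by 0.36 ± 0.04 in soleus (edgeR adjusted p = 2.2e-07). In EDL Psmb10 and Tap2 fell by 0.21 ± 0.04 and 0.16 ± 0.04 (edgeR adjusted p = 0.00033 and 0.00515). H2-Q6 and H2-Q7 are relatives of the class I heavy chains that can share reads within the family, and fell in both muscles. H2-Q6 averaged 109 CPM ± 15.8 in soleus Atf4 ECKO and 166 CPM ± 19.4 in soleus wild type, and 155 CPM ± 5.08 in EDL Atf4 ECKO and 336 CPM ± 18.6 in EDL wild type. It fell by 0.62 ± 0.08 in soleus and 1.11 ± 0.08 in EDL, and H2-Q7 by 0.64 ± 0.08 and 1.19 ± 0.08 (edgeR adjusted p = 6.3e-07, 1.8e-11, 8e-07 and 1.4e-11). Nlrc5, the transactivator of class I genes, averaged 11.2 CPM ± 1.16 in soleus Atf4 ECKO and 9.64 CPM ± 1.38 in soleus wild type, and 11.4 CPM ± 0.665 in EDL Atf4 ECKO and 13.99 CPM ± 1.84 in EDL wild type. It was called in neither genotype comparison, at 0.22 ± 0.11 in soleus and -0.28 ± 0.11 in EDL (edgeR adjusted p = 0.156 and 0.0592), while its interaction of 0.50 ± 0.16 was (edgeR adjusted p = 0.0239), though not without the libraries that carry both kinds of sex-linked RNA (0.36, edgeR adjusted p = 0.18). Class II genes, which immune cells express, summed to 2.76 CPM ± 0.477 in soleus Atf4 ECKO and 31.1 CPM ± 5.73 in soleus wild type, and to 3.88 CPM ± 0.363 in EDL Atf4 ECKO and 16.4 CPM ± 1.48 in EDL wild type. They were lower in Atf4 ECKO in both muscles, as were B2m and H2-D1, and their part in those falls was not tested.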

How the data were processed

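RNA of 20 libraries in 4 groups of 5 was sequenced as stranded, single-end mRNA libraries, per the labels' protocols. For each library the deposited file gives estimated counts and TPM per transcript as made by the authors, and kallisto is named in the submitters' processing notes, with no version. DESeq2 is named there too. The build in those notes is the human GRCh38.p13, while all transcript IDs are those of mouse. Of 129439 transcripts, 128643 were matched to GENCODE M21 (GRCm38), and the remainder held at most 0.221% of a library. The deposited estimated counts were summed per gene and rounded, and the deposited TPM values were summed per gene and used to compare levels between genes.

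Genes were filtered by filterByExpr, and 1 fit of the 4 group means over all libraries was made in edgeR 4.0.16 (R 4.3.3) with TMM factors and quasi-likelihood tests. P-values were Benjamini-Hochberg adjusted over all 13971 tested genes and called below 0.05. SE was taken from the log2 fold change and its F statistic. Alternatives included DESeq2 1.42.0 and limma-voom (limma 3.58.1), other scaling and filters, transcript length, Y-linked or immune RNA as covariates, and each library left out. The most abundant gene held 8.91% to 12.2% of a library, and estimated counts carry mapping error beside counting error.

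Members and the other lists were chosen with earlier results of these data known. Besides all members, the text names from each other list up to 4 genes per comparison with the smallest adjusted p (in practice the 2 smallest of each genotype comparison), receptor chains, Nlrc5, ligands, and close copies of members.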

Additional observations from a re-analysis of the deposited data

Results flagged for a closer look

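In 3 of 144 groups examined, 1 library lay far from the other 4, where chance alone gives about 1 in 20. Oas1a was lowest in soleus Atf4 ECKO library 5, at 30.3 CPM against 33.99 to 35.3 CPM in the other 4. Mx1, which was not tested, was highest in soleus Atf4 ECKO library 2, at 0.709 CPM against 0.1695 to 0.283 CPM. Isg15 was highest in soleus wild type library 4, at 48.4 CPM against 41.4 to 42.9 CPM.

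For 29 members the difference between the genotype effects in soleus and in EDL was itself called by edgeR at an adjusted p below 0.05, always more positive in soleus. On the log2 scale this interaction was 0.40 for the sensor Ifih1, and 0.71 and 0.33 for the factors Irf7 and Irf9. Among effectors it was 0.895 for Ifit1, 0.52 for Ifit2, 0.81 for Ifit3, 0.35 for Oas1a, 0.72 for Oasl2, 0.33 for Rsad2 and 0.34 for Ifi44. It was 0.76 for Ifi27l2a, 0.36 for Bst2, 0.44 for Ifi35, 0.47 for Xaf1 and 0.65 for Cmpk2. Among regulators it was 0.41 for Usp18, 0.58 for Parp9, 0.765 for Parp14 and 0.495 for Dtx3l. Among GTPases it was 0.84 for Gbp2, 0.65 for Gbp3, 0.785 for Ifi47 and 0.83 for Igtp. In the class I genes it was 0.34 for Tap1, 0.58 for Psmb8, 0.53 for Psmb9, 0.22 for B2m, 0.58 for H2-K1 and 0.32 for H2-D1. For Oas1a and Rsad2 the call was lost without the 3 libraries that carry both kinds of sex-linked RNA, at 0.276 and 0.163, and that of Oas1a also in 15 of 20 fits that left out 1 library.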

How the results depend on the processing

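Direction and call of single members held in 5300 values recomputed under other settings or without 1 library, while 169 lost a call, 68 gained one and 28 turned. Of the 5300, 3424 came from fits that left out 1 library. With immune RNA as a covariate only 88 held, while 55 lost a call, 10 gained one and 22 turned. With Y-linked RNA as a covariate 135 held, while 24 lost a call, 10 gained one and 6 turned. In another fit, counts were summed within Ifit3 and Ifit3b, Gbp2 and Gbp2b, and H2-K1, H2-D1 and the H2-Q genes. There 174 held and 1 gained a call, and 4 members were lower in soleus Atf4 ECKO. A summed set has 1 value, so this fit cannot part the copies. With immune RNA as a covariate, 7 members were higher and 1 lower in soleus Atf4 ECKO against soleus wild type. In EDL Atf4 ECKO against EDL wild type, 5 were then higher and 12 lower. Between soleus and EDL, 11 were higher and 0 lower in Atf4 ECKO, and 0 higher and 9 lower in wild type. Under the same covariate 16 had a positive interaction. With Y-linked RNA as a covariate, 1 was lower in soleus Atf4 ECKO and 7 in EDL Atf4 ECKO. Without the 3 libraries with both kinds of sex-linked RNA, 5 were lower in soleus Atf4 ECKO. Without the filter on low counts, 0 were higher in EDL Atf4 ECKO. In Atf4 ECKO, 0 were lower in soleus than in EDL without that filter, with the compared groups alone, with the length offset, or without mitochondrial genes and the most abundant gene in TMM.

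Leaving out each library in turn gave 25 to 28 higher and 3 to 4 lower in soleus Atf4 ECKO, 1 to 4 higher and 13 to 15 lower in EDL Atf4 ECKO, and 28 to 31 positive and 0 to 0 negative interactions. Between soleus and EDL it gave 18 to 21 higher and 0 to 2 lower in Atf4 ECKO, and 2 to 2 higher and 21 to 24 lower in wild type. Under the replicate block, 26 were higher and 3 lower in soleus Atf4 ECKO, 3 and 14 in EDL Atf4 ECKO, 20 and 2 between the muscles in Atf4 ECKO, 2 and 22 in wild type, with 29 positive interactions. Deviations of same-numbered libraries from their group means correlated at -0.0662 to 0.0996, which does not settle what the numbers stand for.

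These log2 fold changes turned, and the cause was not tested. With immune RNA, in soleus Atf4 ECKO: Ifih1 -0.832, Irf9 -0.002, Stat2 -0.630, Rsad2 1.091, Xaf1 -0.009, Parp9 -0.110, Dtx3l -0.050, Ifnar2 -0.132 and Tyk2 -0.142. In EDL Atf4 ECKO Irf7 was at 0.289, and between the muscles in Atf4 ECKO Isg15 was at -0.180. Between the muscles in wild type Ifih1 was at 0.955, Irf9 at 0.186, Ifit1 at 0.203, Isg15 at -1.311, Oasl2 at 0.310, Rsad2 at -0.866, Xaf1 at 0.162, Parp9 at 0.180, Dtx3l at 0.237, Psmb9 at 0.040 and B2m at 0.118. Interactions turned for Ifih1 (-0.411), B2m (-0.044), Gbp4 (-0.210) and Tyk2 (-0.091). With Y-linked RNA, Ifih1 (-0.119), Stat2 (-0.011) and Rsad2 (0.405) turned in soleus, and Irf7 (0.616), Rsad2 (0.161), Ifi47 (0.055), Rnf125 (0.007) and Socs3 (0.055) in EDL. With the length offset Sting1 turned in soleus (-0.023).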
